A study of Mus musculus with 8 samples.

Results

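The interleukin 1 (IL-1) and inflammasome genes examined here are Il1a, Il1b, Il1rn, Il18, Nlrp3, Nlrp1b, Aim2, Pycard, Casp1 and Casp4. They are 10 of the 18782 genes with a probe set of a single symbol in the array annotation, and each of the 10 had exactly 1 such probe set. All 10 were measured in sorted lung cells of C57BL/6 mice with floxed Pparg alleles, so that every group carried the loxP sites. The labels name the day 2 cells preAM, precursors of alveolar macrophages, and the day 11 cells AM, alveolar macrophages. Control mice (PPARg fl/fl) had no recombinase, and knockout mice (CD11cCre/PPARg fl/fl) carried Cre under the CD11c promoter, which acts in CD11c-expressing cells in general and not in alveolar macrophages alone. Cells came from mice 2 days or 11 days after birth. There were 4 groups of 2 arrays, each array from the pooled sorted cells of 2 mice, and p-values measure the spread between such pools. Day 2 cells were sorted as live CD45+ F4/80+ CD11c-high cells that were either intermediate for Siglec-F and CD11b or low for Siglec-F and high for CD11b. Which of these gates was used for which genotype is not given. Day 11 cells were CD11c-high, autofluorescent and Siglec-F+, and were gated on CD11b as low (control mice) or high (knockout mice). Gate and genotype therefore cannot be told apart. The gates and the labelled cell stage also differed between the ages, so age, gate and stage cannot be told apart. This holds for the interactions of genotype and age too. In such bulk samples fewer cells of a type and less RNA per cell cannot be told apart either.

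IL-1α and IL-1β are cytokines that signal through the IL-1 receptor and MyD88 to NF-κB, and the antagonist encoded by Il1rn occupies the same receptor without signalling. IL-1β and IL-18 are made as inactive precursors. They are cut by caspase-1, which is activated in inflammasomes, complexes of a sensor (such as NLRP3, NLRP1B or AIM2) and the adaptor ASC, the product of Pycard. Caspase-11, encoded by Casp4 in the mouse, senses cytosolic lipopolysaccharide and cuts gasdermin D, and lung macrophages use this machinery in their response to bacteria and particles. mRNA arrays do not measure the cutting or release of the cytokines.

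Values below are RMA signals on the log2 scale, as deposited, and differences are differences of mean log2 signal with their standard error (SE) from a linear model over all arrays. A gene was called at a limma adjusted p under 0.05, the adjustment running over all 18782 genes. Pparg, the targeted gene, was 10.89 and 11.01 in controls and 10.55 and 10.74 in knockouts at day 2 (-0.305 ± 0.082, adjusted p = 0.0346), and 11.18 and 11.13 against 11.32 and 11.36 at day 11 (0.185 ± 0.082, adjusted p = 0.183). At day 11 both knockout arrays lay above both controls. Where its probes lie relative to the loxP sites is not given, so this signal is no check of the deletion, and genotypes are those of the labels. The labelled cell type was set beside marker lists. Among the listed genes are 2 that encode sorting markers, so their values are no independent check. Siglecf, in the alveolar macrophage list, differed by -2.58 at day 2 and -2.02 at day 11. Itgam, which encodes CD11b and is in the monocyte list, differed by 3.05 and 4.49. Of 10 alveolar macrophage markers measured, 9 were lower in knockouts at day 2 and 8 at day 11, and their mean signal was 10.3 to 10.4 in day 2 controls, 7.56 to 7.96 in day 2 knockouts, 11.1 in both day 11 controls and 8.68 to 8.75 in day 11 knockouts. Of 9 monocyte markers measured, 8 were higher in knockouts at day 2 and 5 at day 11, and their mean was 7.23 to 7.31 in day 2 controls, 9.16 to 9.84 in day 2 knockouts, 6.49 to 6.52 in day 11 controls and 7.50 to 7.68 in day 11 knockouts. Of 12 dendritic cell markers, 7 were higher at day 2 and 2 at day 11, with means of 5.59, 7.13 to 7.17, 5.85 to 6.03 and 6.17 to 6.53 in the same order of groups. Of 13 neutrophil markers measured, 8 were higher and 2 lower at day 2, and 2 were higher and 3 lower at day 11, with means of 5.70 to 5.76, 6.58 to 6.59, 5.83 to 5.92 and 5.92 to 5.99. The 8 higher at day 2 were Csf3r, Ltf, Mmp8, Mmp9, Ngp, Retnlg, S100a8 and S100a9, granule genes among them. The 2 lower at day 2 were the chemokine receptors Cxcr1 (-2.82, adjusted p = 2.6e-05) and Cxcr2 (-0.78, adjusted p = 0.0207). Camp, Elane and Mpo were not called. Mmp8, which encodes a granule collagenase, was 6.22 and 6.26 in day 2 controls and 10.50 and 10.79 in day 2 knockouts, and Ngp, a granule protein gene, was 3.85 and 4.42 against 5.99 and 6.29. At day 11 Mmp8 was 8.06 and 7.64 in controls and 11.07 and 11.09 in knockouts, and Ngp was 4.05 and 3.96 against 3.82 and 4.04. Of 8 endothelium markers, 4 were higher at day 2, and 1 was higher and 1 lower at day 11, with means of 5.62 to 5.65, 6.27 to 6.44, 5.62 to 5.63 and 5.63 to 5.68. Of 10 alveolar epithelium markers, 2 were lower at day 2 and 4 at day 11, with means of 7.01 to 7.02, 6.72 to 7.05, 6.86 to 7.05 and 6.49 to 6.54. Of 10 mast cell and basophil markers 2 were higher at day 2, of 9 T and NK cell markers 1 was higher at day 2 and 2 at day 11, and of 7 B cell markers 2 were lower at day 11. All these marker counts stand beside 20.1% of all genes called at day 2 and 18.6% at day 11. The part of these lists in the members' results was not tested. The median difference of all genes was -0.03 at day 2 and -0.002 at day 11, so the members are read against a centre close to 0.

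At day 2 the cytokine Il18 was lower in knockouts and Il1a, Il1b, Il1rn, Nlrp3, Nlrp1b, Pycard and Casp4 were higher. Il18 was 3.01-fold lower, and the rises ran from 1.22-fold for Il1a to 1.61-fold for Nlrp1b. Aim2 and Casp1 were not called. The 8 called members of 10 stand beside a background of 20.1% of all genes called at day 2 (8.86% higher and 11.2% lower). At day 11, Il18 was again lower, by 3.20-fold, and Nlrp1b was lower by 1.53-fold, while Pycard, Il1b, Nlrp3 and Casp4 were higher. Il1a, Il1rn, Aim2 and Casp1 were not called. That gave 6 called members of 10 against a background of 18.6% of all genes (9.34% higher and 9.29% lower). The median member difference was 0.43 at day 2 and 0.20 at day 11. Control and knockout arrays did not overlap for 8 of the 10 members at day 2, where 58.2% of all genes did not, and for all 10 at day 11, where 56.3% of all genes did not.

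**Figure D1:**
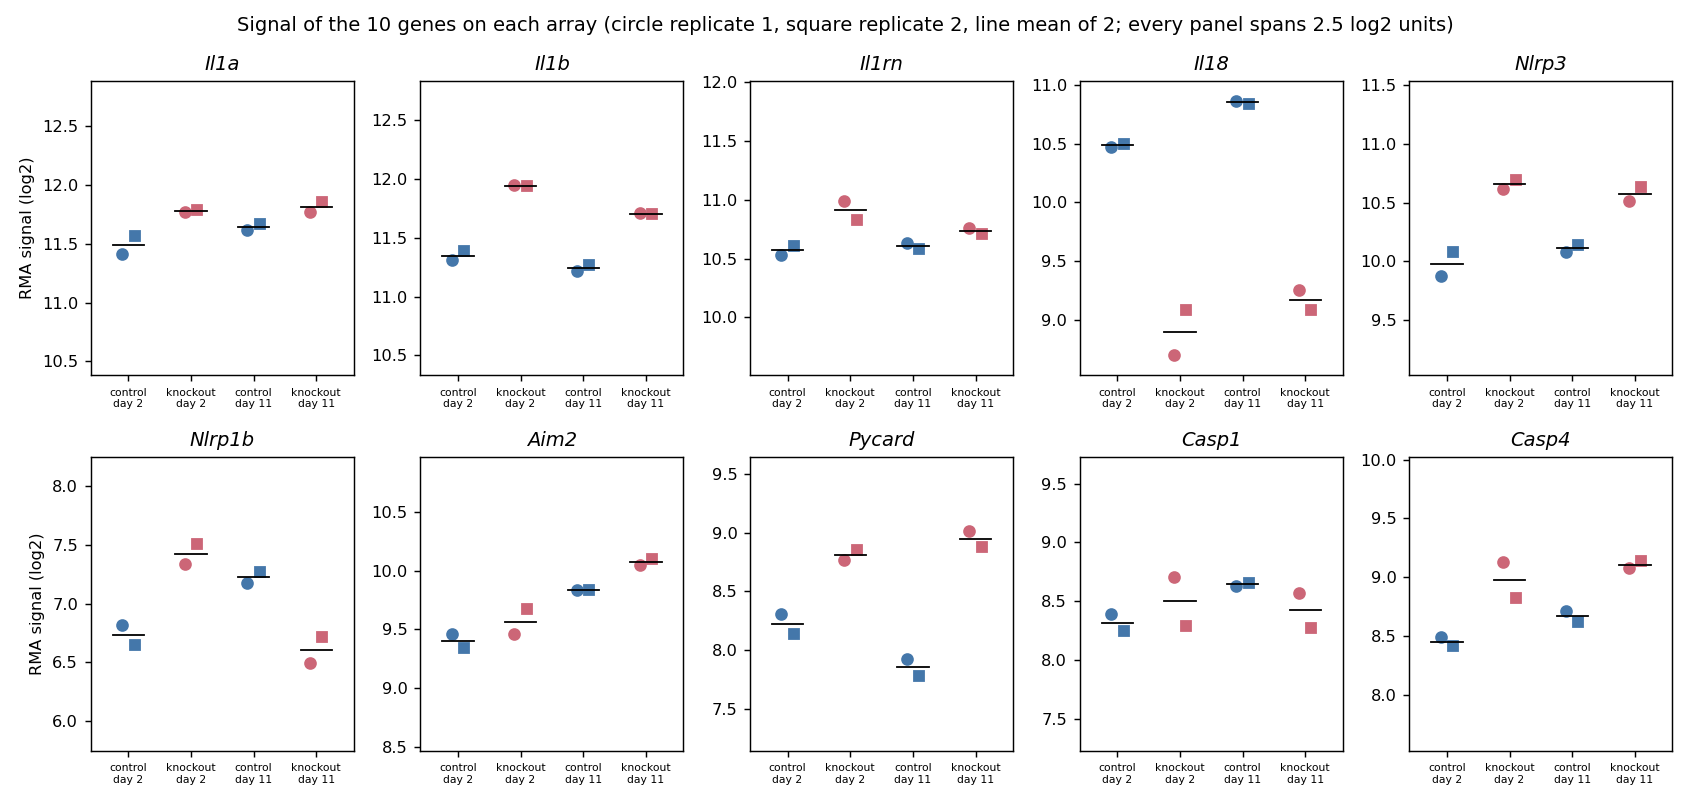
RMA signal (log2, vertical axis) of each of the 10 genes in control (blue) and knockout (red) cells at day 2 and day 11, with 1 point per array, circles for replicate 1, squares for replicate 2 and a line at the group mean. Knockout arrays lie below control arrays for Il18 and above them for Il1b, Nlrp3, Pycard and Casp4 at both ages, and for Nlrp1b the order of the genotypes turns between the ages.

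The ligands moved in opposite directions. Il1b signal was 11.31 and 11.39 in day 2 controls, 11.95 and 11.94 in day 2 knockouts, 11.22 and 11.27 in day 11 controls, and 11.71 and 11.70 in day 11 knockouts. Every knockout array lay above every control array, and the 2 arrays of each group lay close together. Il1b was higher in knockouts by 0.595 ± 0.061 at day 2 (1.51-fold, adjusted p = 0.000395) and by 0.46 ± 0.061 at day 11 (1.38-fold, adjusted p = 0.00144). The order from high to low was knockout day 2, knockout day 11, control day 2 and control day 11, with no overlap between neighbours, although the age difference in controls was not called (-0.105, adjusted p = 0.382). Il18 signal was 10.47 and 10.50 in day 2 controls, 8.705 and 9.088 in day 2 knockouts, 10.86 and 10.84 in day 11 controls, and 9.255 and 9.088 in day 11 knockouts. Every control array lay above every knockout array, and the knockout groups of the 2 ages touched at 9.088. Il18 fell by 1.59 ± 0.12 at day 2 (adjusted p = 9.43e-05) and by 1.68 ± 0.12 at day 11 (adjusted p = 7.35e-05).

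Il1a, the IL-1 cytokine that is active without caspase cutting, was 11.41 and 11.57 in day 2 controls, 11.77 and 11.79 in day 2 knockouts, 11.62 and 11.67 in day 11 controls, and 11.77 and 11.86 in day 11 knockouts. Knockout arrays lay above control arrays at both ages, and the knockout groups of the 2 ages overlapped. The difference was 0.29 ± 0.07 at day 2 (adjusted p = 0.029) and 0.17 ± 0.07 at day 11 (adjusted p = 0.178). Il1rn, which encodes the receptor antagonist, was 10.53 and 10.61 in day 2 controls, 10.99 and 10.83 in day 2 knockouts, 10.63 and 10.58 in day 11 controls, and 10.76 and 10.71 in day 11 knockouts. The control groups of the 2 ages overlapped and the knockout arrays lay above them. Its difference was 0.34 ± 0.07 at day 2 (adjusted p = 0.0149) and 0.13 ± 0.07 at day 11 (adjusted p = 0.313). The day 2 call of Il1a was lost when replicate 1 of the controls (adjusted p = 0.162) or either knockout array (0.0806 and 0.0959) was left out, and that of Il1rn when replicate 1 of the controls (0.0942) or of the knockouts (0.0756) was. With the 4 day 2 arrays fitted alone, the adjusted p was 0.072 for Il1a and 0.0525 for Il1rn.

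The 5′ flanks of Il18 and Il1b are shown because these cytokine genes share the processing enzyme and differed from control in opposite directions. They are the 250 bases before the annotated start, on the gene's own strand, from RefSeq on build GRCm38.p6, in which all 10 members had at least 1 window. Motifs were searched on both strands in the whole annotated window, which adds 50 bases after the start. They were the NF-κB consensus, the core of the interferon-stimulated response element, the AP-1 motif TGANTCA, the PU.1 motif GAGGAAGT and the direct repeat with 1 spacer base (DR1) that PPAR-RXR dimers bind. Of all 32851 windows, 8.46% held the NF-κB consensus, 3.44% the interferon core, 7.81% the AP-1 motif, 3.2% the PU.1 motif and 0.04% the direct repeat. Capitals mark a match in this and the other printed flanks, and neither of these holds one.
Il18 (chr9:50554450-50554699, plus strand): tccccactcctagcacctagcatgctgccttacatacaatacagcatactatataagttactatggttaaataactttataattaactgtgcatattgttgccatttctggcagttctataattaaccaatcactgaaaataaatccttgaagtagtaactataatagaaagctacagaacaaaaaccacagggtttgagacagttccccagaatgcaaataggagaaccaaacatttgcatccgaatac
Il1b (chr2:129371140-129371389, minus strand): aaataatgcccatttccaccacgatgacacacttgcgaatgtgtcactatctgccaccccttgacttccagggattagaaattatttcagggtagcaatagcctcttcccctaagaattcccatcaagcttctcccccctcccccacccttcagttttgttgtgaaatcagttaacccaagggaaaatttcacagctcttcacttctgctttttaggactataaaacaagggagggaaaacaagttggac
No member's window held the direct repeat or the interferon core. An AP-1 match stood 12 bases before the start in Il1a and 141 bases before it in the first of the 3 windows of Il1rn. A match is a description of the letters and not a mapped binding site.

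Among the sensors, Nlrp3, which responds to potassium loss and membrane damage, was higher in knockouts at both ages. Its signal was 9.88 and 10.08 in day 2 controls, 10.62 and 10.69 in day 2 knockouts, 10.08 and 10.14 in day 11 controls, and 10.51 and 10.63 in day 11 knockouts. The genotypes did not overlap, and the 2 ages overlapped within each genotype. Nlrp3 rose by 0.68 ± 0.09 at day 2 (1.60-fold, adjusted p = 0.00106) and by 0.46 ± 0.09 at day 11 (1.38-fold, adjusted p = 0.00727), and the day 11 call was lost without control day 11 replicate 1 (adjusted p = 0.0581) or knockout day 11 replicate 2 (0.0509). Its upstream window, the farther of the 2 annotated, held 1 NF-κB match 186 bases before the start, and the other window held no match. The flank of the window with the match is shown because the gene rose at both ages.
Nlrp3 (chr11:59541319-59541568, plus strand): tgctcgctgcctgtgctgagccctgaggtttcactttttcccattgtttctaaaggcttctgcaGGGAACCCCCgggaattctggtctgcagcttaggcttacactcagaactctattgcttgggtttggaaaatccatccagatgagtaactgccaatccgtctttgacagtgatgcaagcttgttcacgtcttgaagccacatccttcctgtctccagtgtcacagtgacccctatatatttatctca

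Nlrp1b, a sensor of bacterial proteases, turned with age. Its signal was 6.82 and 6.65 in day 2 controls, 7.34 and 7.50 in day 2 knockouts, 7.18 and 7.27 in day 11 controls, and 6.50 and 6.72 in day 11 knockouts. The day 2 knockouts and day 11 controls were the high groups, and the day 2 controls and day 11 knockouts were low and overlapped. Nlrp1b was higher in knockouts by 0.69 ± 0.10 at day 2 (adjusted p = 0.00246) and lower by a difference of -0.62 ± 0.10 at day 11 (adjusted p = 0.00452). The interaction, the day 11 minus the day 2 knockout difference, was -1.30 ± 0.15 (adjusted p = 0.00425), the only one called among the 10 members, where 3.27% of all genes were called. The mouse Nlrp1 genes are close paralogs, and signal of one may reach the probes of another. The probe set of Nlrp1a was 6.61 and 6.49 in day 2 controls, 6.83 and 6.68 in day 2 knockouts, 6.36 and 6.34 in day 11 controls, and 5.68 and 6.01 in day 11 knockouts. Its difference was -0.50 ± 0.11 at day 11 (adjusted p = 0.017) and 0.20 ± 0.11 at day 2 (adjusted p = 0.273). The day 11 call of Nlrp1a was lost when either day 11 control (adjusted p = 0.0931 without replicate 1 and 0.0786 without replicate 2) or replicate 1 of the day 11 knockouts (0.0675) was left out.

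Aim2, which binds cytosolic DNA, was called with age and not with genotype. Its signal was 9.465 and 9.34 in day 2 controls, 9.46 and 9.67 in day 2 knockouts, 9.84 on both day 11 control arrays, and 10.05 and 10.10 in day 11 knockouts. The day 2 groups overlapped, and both day 11 groups lay above them. Aim2 rose from day 2 to day 11 by 0.44 ± 0.09 in controls (adjusted p = 0.0289) and by 0.51 ± 0.09 in knockouts (adjusted p = 0.00699), while knockouts differed from controls by 0.165 at day 2 (adjusted p = 0.238) and by 0.24 at day 11 (adjusted p = 0.102). Of the other members, Nlrp1b rose with age in controls (0.49 ± 0.10, adjusted p = 0.0371) and fell by 0.81 ± 0.10 in knockouts (adjusted p = 0.00222), and Il1b fell by 0.24 ± 0.06 in knockouts (adjusted p = 0.0357). In controls the 2 members called with age, Aim2 and Nlrp1b, compare with 5.3% of all genes, and in knockouts the 3 compare with 15.5%. Both control calls were lost without any 1 of the 4 control arrays, with adjusted p from 0.0911 to 0.163 for Aim2 and from 0.0943 to 0.191 for Nlrp1b. The Il1b call was lost without any 1 of the 8 arrays (adjusted p from 0.0521 to 0.135), under the replicate block (0.0501) and with only the knockout arrays fitted (0.0935).

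Pycard, the adaptor that joins sensors to caspase-1, had the largest rise at day 11 among the members. Its signal was 8.31 and 8.14 in day 2 controls, 8.76 and 8.855 in day 2 knockouts, 7.92 and 7.78 in day 11 controls, and 9.01 and 8.88 in day 11 knockouts. The 4 groups did not overlap, and the order was knockout day 11, knockout day 2, control day 2 and control day 11. Pycard was higher in knockouts by 0.59 ± 0.09 at day 2 (1.50-fold, adjusted p = 0.00264) and by 1.09 ± 0.09 at day 11 (2.13-fold, adjusted p = 0.000138). The interaction was 0.51 ± 0.13 (adjusted p = 0.0849), so a larger effect at day 11 was not shown. The Pycard flank held 1 PU.1 match on the opposite strand, 44 bases before the start. The first of the 2 windows of Nlrp1b and the window of Aim2 held 1 PU.1 match each, 96 and 113 bases before the start.
Pycard (chr7:127993868-127994117, minus strand): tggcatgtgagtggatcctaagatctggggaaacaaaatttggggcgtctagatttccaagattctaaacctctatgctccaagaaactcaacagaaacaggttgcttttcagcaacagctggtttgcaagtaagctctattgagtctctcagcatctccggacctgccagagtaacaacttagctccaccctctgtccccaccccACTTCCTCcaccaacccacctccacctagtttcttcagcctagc

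The caspases differed from each other. Casp4 signal was 8.49 and 8.41 in day 2 controls, 9.13 and 8.82 in day 2 knockouts, 8.71 and 8.62 in day 11 controls, and 9.08 and 9.14 in day 11 knockouts. Knockout arrays lay above control arrays at both ages and the knockout groups overlapped. Casp4 rose by 0.52 ± 0.10 at day 2 (1.44-fold, adjusted p = 0.00902) and by 0.44 ± 0.10 at day 11 (1.36-fold, adjusted p = 0.02). The day 2 call was lost without control day 2 replicate 2 (adjusted p = 0.0692). The day 11 call was lost without any 1 of the 4 day 11 arrays (0.0658 and 0.117 without control replicates 1 and 2, 0.0633 and 0.101 without knockout replicates 1 and 2). Casp1 signal was 8.39 and 8.25 in day 2 controls, 8.71 and 8.29 in day 2 knockouts, 8.63 and 8.65 in day 11 controls, and 8.57 and 8.27 in day 11 knockouts. Neighbouring groups overlapped all along its order. The Casp1 difference was 0.18 ± 0.15 at day 2 (adjusted p = 0.46) and -0.22 ± 0.15 at day 11 (adjusted p = 0.384). At day 2 it was -0.0265 without knockout replicate 1. The Casp4 flank is shown because, of the members' windows, it alone held more than 1 match: 2 overlapping NF-κB matches 93 and 92 bases before the start and another on the opposite strand 39 bases before it. A further Casp4 window, starting 11 bases later, held the same matches, and the Casp1 window held none.
Casp4 (chr9:5308599-5308848, plus strand): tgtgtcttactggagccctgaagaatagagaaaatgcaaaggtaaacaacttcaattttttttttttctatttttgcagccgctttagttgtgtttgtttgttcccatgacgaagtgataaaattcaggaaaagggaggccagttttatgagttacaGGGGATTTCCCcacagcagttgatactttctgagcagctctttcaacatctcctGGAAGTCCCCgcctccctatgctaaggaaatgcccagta

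**Figure D2:**
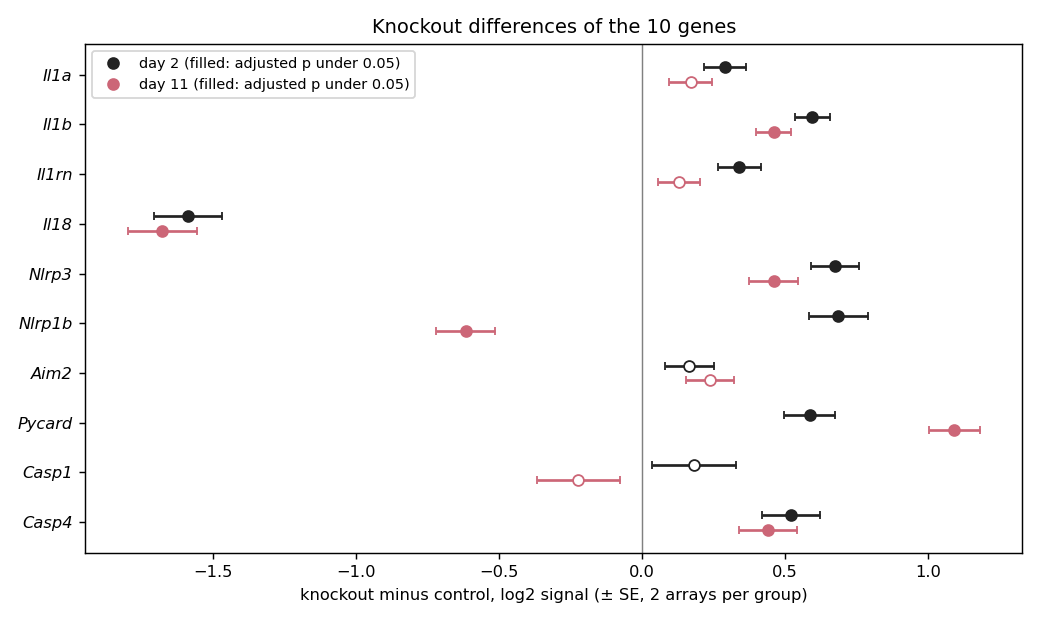
Knockout minus control difference in log2 signal (horizontal axis, ± SE, 2 arrays per group) for each of the 10 genes at day 2 (black) and day 11 (red), filled where the adjusted p was under 0.05. Il18 lies at -1.59 and -1.68, Nlrp1b changes side, and Pycard reaches 1.09 at day 11.

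The 2 day 2 knockout pools differed from each other in several members. The mean signal of 28 interferon response genes reached 9.10 for knockout day 2 replicate 1. It was 6.74 for replicate 2, and from 6.07 to 6.53 on the other arrays. Beside it, replicate 1 exceeded replicate 2 by 0.42 in Casp1, 0.31 in Casp4 and 0.16 in Il1rn, and lay lower by a difference of -0.38 in Il18, -0.21 in Aim2 and -0.17 in Nlrp1b. Replicate 1 minus replicate 2 was -0.09 in Pycard, -0.07 in Nlrp3, -0.02 in Il1a and 0.01 in Il1b. Without replicate 1 the day 2 difference was 0.37 in Casp4 (adjusted p = 0.0268), -1.40 in Il18 (adjusted p = 0.000121), 0.77 in Nlrp1b (adjusted p = 0.0051) and 0.59 in Il1b (adjusted p = 0.00265), and 6 of the 10 members were called. The monocyte marker mean was 9.84 in replicate 1 and 9.16 in replicate 2. The part of either list in the members' values was not tested.

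**Figure D3:**
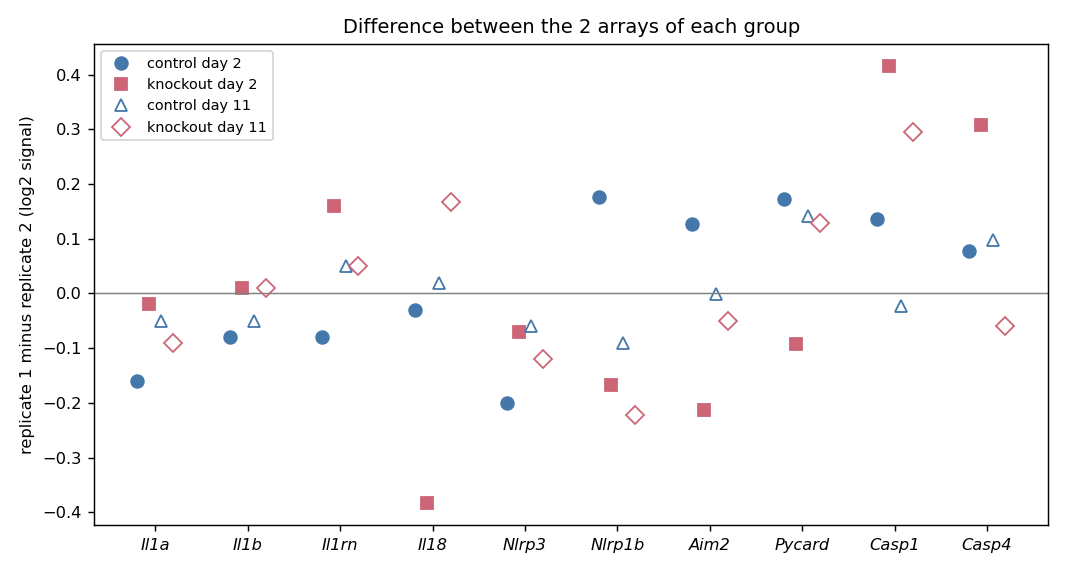
Replicate 1 minus replicate 2 in log2 signal (vertical axis) for each of the 10 genes in the 4 groups (filled symbols day 2, open symbols day 11, blue controls, red knockouts). The day 2 knockout pools lie farthest apart in Casp1 (0.42), Il18 (-0.38) and Casp4 (0.31), and in Casp1 the day 11 knockout pools also differ, by 0.30.

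The other genes of the pathway were taken from 6 lists, of which 75 genes besides the members were measured. At day 2, 23 of them were higher and 8 lower in knockouts (41.3% called, with 20.1% of all genes called), and their median difference was 0.14. At day 11, 11 were higher and 8 lower (25.3%, with 18.6% of all genes called), and the median was 0.03. The mean signal of 15 genes of tissue dissociation stress, a response that includes early NF-κB and AP-1 targets, moved with genotype at both ages: it was 9.93 to 9.96 in day 2 controls, 10.35 to 10.48 in day 2 knockouts, 10.04 to 10.07 in day 11 controls and 10.41 to 10.45 in day 11 knockouts. Of these 15 genes, 10 were higher in knockouts at day 2, and at day 11 9 were higher and 1, the AP-1 gene Jun, was lower (-0.26, adjusted p = 0.0427). Their part in the results on Il1b, Nlrp3 and the NF-κB genes was not tested.

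Of 8 receptors of the IL-1 family measured, 4 were higher in knockouts at day 2 and 3 at day 11, and the others were not called. Of all genes, 8.86% were called higher at day 2 and 9.34% at day 11. Il1r2, the decoy receptor that binds IL-1 without signalling, was 6.055 and 6.02 in day 2 controls, 9.93 and 9.77 in day 2 knockouts, 5.46 and 5.66 in day 11 controls, and 6.60 and 6.555 in day 11 knockouts. The day 2 knockouts stood above all other groups, and the day 11 knockouts above both control groups. Il1r2 was 14.0-fold higher in knockouts at day 2 (3.81 ± 0.09, adjusted p = 1.33e-06). At day 11 the excess was 2.02-fold (1.02 ± 0.09, adjusted p = 0.000169), and the interaction was -2.79 ± 0.12 (adjusted p = 7.77e-05). Il1r1, the signalling receptor, rose by 0.95 ± 0.15 at day 2 (adjusted p = 0.00297), and its difference of 0.31 ± 0.15 at day 11 was not called (adjusted p = 0.221). Il1rap, the accessory chain needed for signalling, rose by 0.60 ± 0.09 at day 2 (adjusted p = 0.00233) and by 0.74 ± 0.09 at day 11 (adjusted p = 0.000883). Il1rl2, the IL-36 receptor, rose by 0.49 ± 0.09 at day 2 (adjusted p = 0.0075). It rose by 0.51 ± 0.09 at day 11 (adjusted p = 0.00661), a call lost without control day 11 replicate 1 (adjusted p = 0.0553). Among ligand-binding proteins, Il18bp, which neutralises IL-18, was 7.25 in knockout day 2 replicate 1, the pool with the high interferon response, and 6.15 to 6.44 on the other arrays (adjusted p = 0.458 at day 2).

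Of 23 genes of IL-1 receptor and Toll-like receptor signalling, 10 were higher and 1 was lower at day 2, and 4 were higher and 2 lower at day 11. These counts stand beside 20.1% of all genes called at day 2 and 18.6% at day 11, in either direction. The largest rises at day 2 were of regulators of NF-κB. Another such gene, Nfkbia, was not called at day 2 (0.08, adjusted p = 0.405) or at day 11 (0.13, adjusted p = 0.1835). Nfkbie, which encodes an inhibitor of NF-κB, rose by 1.44 ± 0.13 at day 2 (adjusted p = 0.000226) and by 0.53 ± 0.13 at day 11 (adjusted p = 0.0264). The latter call was lost when either day 2 control was left out (adjusted p = 0.0519), when replicate 1 of the day 11 controls was (0.168), and when replicate 1 (0.0553) or 2 (0.139) of the day 11 knockouts was. Nfkbiz, which encodes an IκB protein that acts in the nucleus, rose by 1.01 ± 0.12 at day 2 (adjusted p = 0.000789) and by 0.69 ± 0.12 at day 11 (adjusted p = 0.00535), and Tnfaip3, which encodes the ubiquitin-editing protein A20, by 0.76 ± 0.08 at day 2 (adjusted p = 0.000471) and by 0.45 ± 0.08 at day 11 (adjusted p = 0.00644). Myd88, the adaptor of the receptors, fell by 0.515 ± 0.062 at day 11 (adjusted p = 0.000851), and its day 2 difference of -0.145 was not called (adjusted p = 0.154). It was 11.08 and 11.00 in day 11 controls and 10.51 and 10.54 in day 11 knockouts, without overlap.

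The other sensors moved both ways, 1 of 8 being higher and 3 lower at day 2 and 1 higher and 2 lower at day 11. Of all genes, 8.86% were called higher and 11.2% lower at day 2, and 9.34% higher and 9.29% lower at day 11. Nlrc4, which joins NAIP sensors of flagellin to caspase-1, was 8.14 and 8.07 in day 2 controls, 7.58 and 7.49 in day 2 knockouts, 8.32 and 8.25 in day 11 controls, and 7.59 and 7.57 in day 11 knockouts. The genotypes did not overlap at either age. Nlrc4 fell by 0.57 ± 0.07 at day 2 (adjusted p = 0.000697) and by 0.71 ± 0.07 at day 11 (adjusted p = 0.000255). Naip5, such a NAIP sensor, fell by 0.25 ± 0.07 at day 2 (adjusted p = 0.0435), a call lost without any 1 array other than knockout day 2 replicate 2 (adjusted p from 0.0628 to 0.2), with the day 2 arrays alone (0.108) and under the replicate block (0.0607). At day 11 its difference of -0.12 was not called (adjusted p = 0.318). Mefv, which encodes pyrin, was 6.91 and 5.55 in the day 2 knockouts and 4.32 to 4.54 on all other arrays, below the array median of 5.35. It was 1.80 ± 0.36 higher at day 2 (adjusted p = 0.00957), 1.12 higher without knockout day 2 replicate 1 and 2.48 higher without replicate 2, and its call was lost without control day 2 replicate 1 (adjusted p = 0.0671) or with a trend and robust prior (0.0615). Nlrp10 rose by 0.36 ± 0.09 at day 11 (adjusted p = 0.0324) at signals of 3.88 to 4.47, below the array median, and was not called at day 2 (0.13, adjusted p = 0.426). The day 11 call was lost when replicate 1 (0.087) or 2 (0.164) of the day 11 controls or replicate 2 of the day 11 knockouts (0.171) was left out, and with the day 11 arrays alone (0.0516).

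Effectors and regulators held several of the larger changes. Ninj1, which ruptures the membrane of dying cells, was 7.11 and 6.83 in day 2 controls, 9.12 and 8.49 in day 2 knockouts, 5.86 and 6.04 in day 11 controls, and 8.10 and 7.45 in day 11 knockouts. Knockout arrays lay above control arrays at both ages. Ninj1 rose by 1.84 ± 0.25 at day 2 (3.57-fold, adjusted p = 0.00158) and by 1.82 ± 0.25 at day 11 (3.54-fold, adjusted p = 0.00174). Gsdmd, the pore former cut by caspase-1 and caspase-11, was not called at day 2 (0.21, adjusted p = 0.195) or at day 11 (-0.31, adjusted p = 0.0621). Gsdme, another gasdermin, rose by 0.65 ± 0.09 at day 2 (adjusted p = 0.00199), a difference of 0.16 with the mean of its probe sets (adjusted p = 0.317), and was not called at day 11 (0.18, adjusted p = 0.268). Its day 2 control signals of 5.02 and 4.925 lay below the array median of 5.35. Of 28 inputs and regulators, 6 were higher and 4 lower at day 2, and 2 were higher and 4 lower at day 11. Of all genes, 20.1% were called at day 2 and 18.6% at day 11. Serpinb1a, an inhibitor of neutrophil-type proteases that also restrains inflammatory caspases, was 11.24 and 11.37 in day 2 controls, 9.24 and 9.73 in day 2 knockouts, 11.07 and 11.02 in day 11 controls, and 10.20 and 10.59 in day 11 knockouts. It fell by 1.82 ± 0.17 at day 2 (adjusted p = 0.000271) and by 0.65 ± 0.17 at day 11 (adjusted p = 0.036). The day 11 call was lost without any 1 day 11 array other than knockout replicate 2 (adjusted p from 0.123 to 0.184), without either day 2 control (0.0626) and with a trend and robust prior (0.0728).

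Nlrc3, an inhibitory member of the NLR family, rose by 1.97 ± 0.13 at day 11 (3.92-fold, adjusted p = 4.59e-05), from 4.83 and 4.99 in controls to 6.95 and 6.81 in knockouts. These control signals lay below the array median of 5.35. At day 2 Nlrc3 rose by 0.74 ± 0.13 (adjusted p = 0.00461). P2rx7, the ATP-gated channel whose opening activates NLRP3, rose by 0.68 ± 0.08 at day 2 (adjusted p = 0.000548), from 8.605 and 8.65 in controls to 9.25 and 9.375 in knockouts. At day 11 it rose by 0.65 ± 0.08 (adjusted p = 0.000722), from 8.90 and 9.04 to 9.60 and 9.64. Birc3, a ubiquitin ligase of NF-κB and cell death signalling, rose by 0.94 ± 0.08 at day 2 (adjusted p = 0.00019), and its day 11 difference of 0.025 was not called (adjusted p = 0.906). Gbp7, an interferon-inducible GTPase, was 10.24 and 9.36 in the day 2 knockouts and 9.11 and 8.77 in the controls. Its difference of 0.86 ± 0.25 (adjusted p = 0.0445) was 0.42 without knockout replicate 1 (adjusted p = 0.0765), and the call was also lost without any other array except knockout day 2 replicate 2 (adjusted p from 0.0664 to 0.23), with the day 2 arrays alone (0.127) and with a trend and robust prior (0.118). At day 11 Gbp7 was not called (0.35, adjusted p = 0.419).

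**Figure D4:**
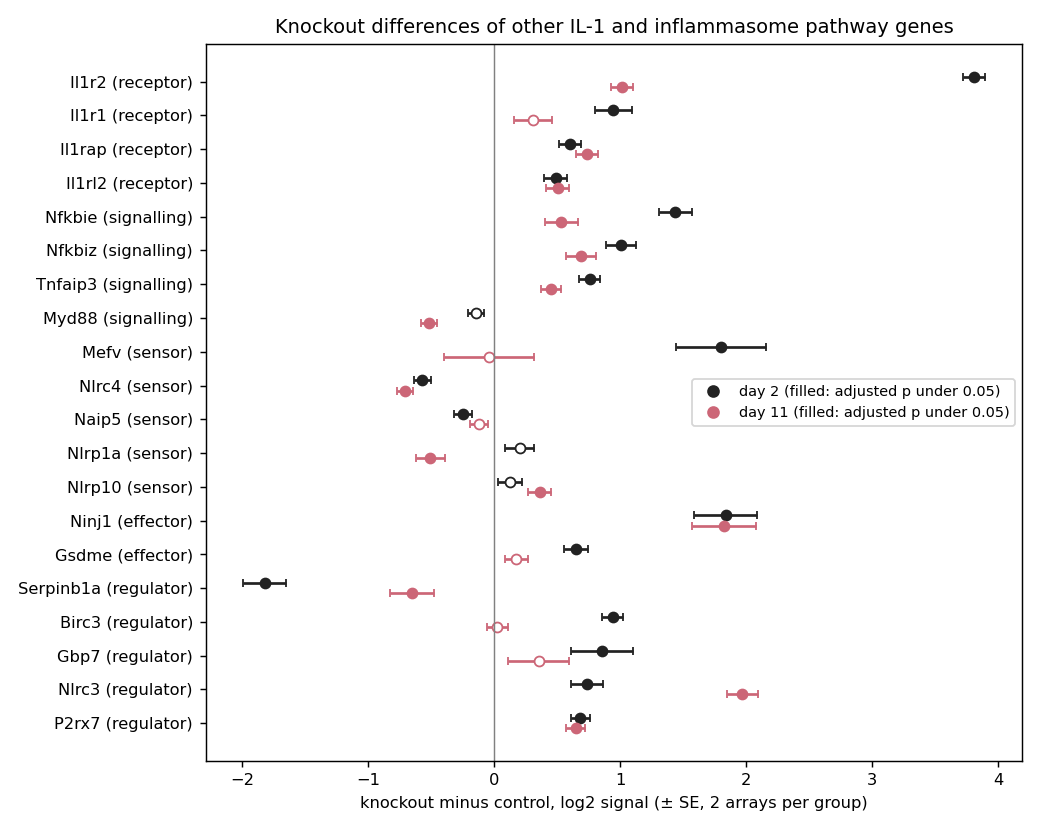
Knockout minus control difference in log2 signal (horizontal axis, ± SE, 2 arrays per group) of the other pathway genes named in the text, at day 2 (black) and day 11 (red), filled where the adjusted p was under 0.05, with the role of each gene in brackets. Il1r2 stands apart at 3.81 at day 2, Ninj1 lies at 1.84 and 1.82, and Nlrc4 and Serpinb1a lie below 0 at both ages. Gsdmd, Il18bp and Nfkbia are not drawn.

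Il18 and Pycard were the members whose group means spanned at least 1 log2 unit, and for each the 3 genes with the most similar pattern were sought among 1387 genes with as wide a span. Pearson's r over the 8 arrays is a description here, since the arrays share 4 groups and 1 normalization. For Il18 they were Matn2 (r = 0.998), which encodes a matrix protein, Mavs (r = 0.997), the mitochondrial adaptor of RNA sensing, and Cidec (r = 0.996), a lipid droplet gene. Mavs had mean signals of 9.99 in day 2 controls, 9.12 in day 2 knockouts, 10.2 in day 11 controls and 9.35 in day 11 knockouts. For Pycard they were Hopx (r = 0.988), a homeodomain cofactor, Rell1 (r = 0.987) and Ecm1 (r = 0.986), a secreted matrix protein, and the knockout arrays of each lay above the control arrays at both ages. Ecm1 spanned the widest range of these, from 6.28 in day 11 controls to 10.8 in day 11 knockouts.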

How the data were processed

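RNA of the sorted lung cells was hybridised to Affymetrix arrays, 8 in 4 groups. The deposited table holds log2 signals of 28874 probe sets, which the authors made with RMA (R 2.15.2 is named in the submitters' processing notes); the probe summarisation level and annotation are not given in the sources used here. Arrays share 1 distribution (differences of at most 0.026 at any rank), so a shift of all genes is not visible. Probe sets with 1 symbol (21159; 1881 had several and 5834 none) were named from the platform annotation, 21129 of them matching RefSeq by Entrez identifier, and the one with the highest mean represented a gene. Group means were fitted with limma 3.58.1 (R 4.3.3, empirical Bayes, 4 residual and 3.77 prior degrees of freedom), tested on simulated data, with Benjamini-Hochberg adjustment over 18782 genes. Members, lists and contrasts were chosen with earlier results of these data known. Lists were written by hand. Pathway genes named besides the members are up to 3 called genes per list and knockout comparison with the largest differences. Genes like a member are those with the highest correlation. Gsdmd, Il18bp, Nfkbia, Jun and the marker genes named fall outside these rules and were chosen after their values were seen. Alternatives left out each array, added a replicate block, changed the prior, the filter on dim genes, the probe set rule, the scaling or the arrays in the fit. The number of arrays limits the precision. Figures were drawn with matplotlib 3.10.9.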

Additional observations from a re-analysis of the deposited data

Results flagged for a closer look

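Among the members and the pathway genes named by rule, the knockout difference itself differed between day 2 and day 11 in 6. The measure was the interaction term of the limma fit (day 11 minus day 2). Marker genes named earlier are not counted. Several of them also had a called interaction, such as Itgam (1.44, adjusted p = 0.00228) and Ngp (-2.08, adjusted p = 0.00677). Of the 6 genes, those other than the member Nlrp1b were named for a large difference at day 2 or day 11, which favours an interaction. Of all 75 other pathway genes, 2 were called with a positive and 4 with a negative interaction (8.0%). Of all genes, 3.27% were called. Nlrp1b had an interaction of -1.30 (adjusted p = 0.00425), its difference being positive at day 2 and negative at day 11. Il1r2 had -2.79 (adjusted p = 7.77e-05), Birc3 -0.92 (adjusted p = 0.00773) and Nfkbie -0.905 (adjusted p = 0.0457), each with a smaller knockout excess at day 11. Nlrc3 had 1.23 (adjusted p = 0.0123) with a larger excess at day 11, and Serpinb1a had 1.17 (adjusted p = 0.0479) with a smaller deficit at day 11. The interactions of Nlrp1b, Il1r2 and Birc3 were called under each of the 14 alternatives run on them (highest adjusted p 0.0275, 0.00138 and 0.0465). That of Nlrc3 was lost without control day 11 replicate 1 (adjusted p = 0.0628). That of Nfkbie was lost under 9 alternatives (highest adjusted p 0.154) and that of Serpinb1a under 8 (highest 0.17).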

How the results depend on the processing

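The count of members called was 8 at day 2 and 6 at day 11, and ran from 6 to 8 and from 4 to 6 when single arrays were left out. With age it was 2 in controls, 0 to 3 when single arrays were left out and 4 with only the control arrays fitted. It was 3 in knockouts (2 to 3) and 1 for the interaction (1 to 1). Leaving out an array leaves 1 in its group, which the limma fit assumes to vary like the other groups. The age count was 0 without any 1 control array. Over all alternatives, 692 of 740 member values kept direction and side of the threshold, 32 lost the call, 7 gained one and 9 changed sign. The changes of sign were in values not called. Leaving out single arrays gave, for Casp1 at day 2, -0.0265 (without knockout day 2 replicate 1) to 0.39, and for Il1rn with age in controls -0.005 (without control day 2 replicate 1) to 0.075. With age in knockouts it gave -0.01 (without knockout day 11 replicate 2) to 0.08 for Il1a, -0.02 (without knockout day 2 replicate 2) to 0.29 for Casp4, and -0.29 to 0.13 for Casp1 (0.13 without knockout day 2 replicate 1 and 0.07 without knockout day 11 replicate 2). The interactions ran from -0.034 (without knockout day 2 replicate 1) to 0.18 for Aim2, from -0.23 to 0.0725 (without knockout day 2 replicate 1) for Casp4, and from -0.28 to 0.10 (without knockout day 2 replicate 2) for Il18. The cause was not tested. No label ties equal replicate numbers to a common litter or day; deviations of same-numbered arrays correlated with r from -0.08 to 0.25, and the replicate block gave 3692 calls in place of 3774 at day 2 and 3415 in place of 3500 at day 11, with 8 and 6 members called.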
